A study of Mus musculus with 15 samples.

Results

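The genes described here are 9 components of steroid hormone and prolactin signaling in the mammary gland, namely Esr1, Pgr, Prlr, Greb1, Areg, Tnfsf11, Wnt4, Stat5a and Stat5b. They were chosen by name, with earlier results of these data known. Each was found in the expression table of every mouse, which makes 9 of the 52526 genes listed. The study asked what prolonged exposure to a low dose of BDE-47, a polybrominated diphenyl ether (PBDE) that was used as a flame retardant, does to the mammary tissue of mice. Female nu/nu nude mice (Crl:NU-Foxn1nu), which lack a functional thymus and were older than 8 weeks at the start, carried osmotic mini-pumps under the skin for 16 weeks. The pumps of 7 mice held BDE-47 in PEG300 with 1% DMSO, and those of the 8 vehicle mice held PEG300 with 1% DMSO. Tissue was taken from the left 4th mammary gland, with 1 RNA library per mouse. Mice are numbered within each group as in the labels, and both groups share the host strain, the pump and the vehicle. Some of the animals carried a xenograft in the region for a separate study, and which ones is not given in the labels. The stage of the estrous cycle, which moves ovarian hormone levels within days, is not given in the sources used here.

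In the adult mammary gland, ovarian estrogen acts through estrogen receptor alpha, the product of Esr1, in a subset of luminal epithelial cells. Estrogen signaling induces the progesterone receptor (Pgr) and the growth factor amphiregulin (Areg), and GREB1 is an estrogen-induced cofactor of the receptor. Progesterone then drives neighboring cells indirectly, through secreted RANK ligand (Tnfsf11) and WNT4. Pituitary prolactin binds its receptor (Prlr) on luminal cells and activates JAK2, which phosphorylates the transcription factors STAT5A and STAT5B. This axis drives side branching, alveolar growth and milk gene expression in pregnancy, and is at a low level of activity in a virgin gland.

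Esr1 and Prlr carry a recognizable STAT element close to a start site, and their windows are shown because these genes stand at the head of the estrogen and prolactin arms. The sequences are RefSeq promoter windows of GRCm38.p6, each from 250 bases before to 50 bases after an annotated start site, written 5′ to 3′ on the gene's strand. Capitals mark the STAT element, TTCNNNGAA, which was searched on both strands together with the textbook palindromes of the estrogen response element and of the element shared by the progesterone and glucocorticoid receptors. No motif overlapped another in these windows.

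Esr1, chr10:4709908-4710207, plus strand: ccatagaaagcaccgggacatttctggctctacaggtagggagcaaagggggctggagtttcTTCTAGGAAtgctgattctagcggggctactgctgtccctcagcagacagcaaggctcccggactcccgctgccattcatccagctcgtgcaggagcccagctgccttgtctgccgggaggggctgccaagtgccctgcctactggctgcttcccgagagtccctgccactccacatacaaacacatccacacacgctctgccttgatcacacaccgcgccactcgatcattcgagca
Prlr, chr15:10223656-10223955, plus strand: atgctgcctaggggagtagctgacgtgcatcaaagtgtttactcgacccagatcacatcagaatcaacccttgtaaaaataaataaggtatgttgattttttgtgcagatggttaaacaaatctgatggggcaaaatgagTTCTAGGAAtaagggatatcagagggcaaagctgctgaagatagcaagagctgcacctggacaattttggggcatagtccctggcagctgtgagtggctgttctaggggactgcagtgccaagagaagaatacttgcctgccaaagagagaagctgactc

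The Esr1 match, TTCTAGGAA, begins 188 bases before the start site and the Prlr match, with the same letters, begins 110 bases before it. Among the 15 windows of the 9 members, these were the only 2 with a complete match to any of the 3 motifs. Of all 32851 windows in the table, 8.3% held the STAT element, 0.07% the estrogen response element and 0.00913% the element of the other steroid receptors. The 2 windows are alternative start sites of genes with several, and the data, which read the 3′ end of transcripts, do not say which start site was in use.

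The 9 genes lie on 8 chromosomes. In GRCm38.p6, Esr1 spans chr10:4611989-5005633, Pgr chr9:8898900-8968611, Prlr chr15:10177238-10349190 and Greb1 chr12:16670615-16801394. Areg spans chr5:91139599-91148432, Tnfsf11 chr14:78277446-78308043 and Wnt4 chr4:137277635-137299501. The paralogs Stat5b (chr11:100780731-100859004) and Stat5a (chr11:100859351-100885169) are neighbors, with 346 bases between them. Their coding sequences are much alike, but these libraries read the 3′ end of transcripts, where the likeness of the paralogs was not examined. If some reads match both, the way the authors counted them could move counts from one to the other.

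Expression is given as log2(CPM), where CPM is the share of a library's mapped reads, scaled to the same total in every mouse, and every gene under 1 CPM is listed at 0. QuantSeq 3′ FWD libraries count each transcript near its 3′ end, so CPM follows transcript number and needs no correction for length. Depth, recovered from the spacing of the low values, was 11.97 to 16.51 M mapped reads in the vehicle mice and 10.06 to 19.58 M in the BDE-47 mice, and 7469 to 11484 and 6929 to 12682 genes were above the floor, respectively. Zeros were frequent in moderately expressed genes too. Among 2742 genes with a mean of 10 to 20 CPM, 28.5% of all values were listed at 0, from 2.3% in BDE-47 mouse 3 to 44.5% in BDE-47 mouse 4. The means of the members over all mice were outside that band, at 27.1 CPM or more for the 7 tested genes and 2.01 CPM or less for Greb1 and Tnfsf11. Every tested member except Prlr nevertheless had a mouse listed at 0. Stat5a, for example, was at 0 in vehicle mouse 8 against 4.17 to 6.90 log2(CPM) in the other vehicle mice. Whether such zeros are missed transcripts was not tested.

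The labeled tissue held mammary epithelium and fat in every mouse, but 3 of the 15 samples stood apart. The luminal epithelial list (10 markers, among them Krt8, Krt18 and Epcam) summed to 654 to 3210 CPM in 12 mice, against 47.6 CPM in vehicle mouse 6, 141 CPM in vehicle mouse 8 and 198 CPM in BDE-47 mouse 6. The adipocyte list, 10 markers such as Adipoq and Plin1, summed to 9960 to 33700 CPM in the 12 mice and to 515, 1260 and 4340 CPM in those 3. Vehicle mice 6 and 8 were the only mice with all 8 B cell markers, with a log2(summed CPM + 1) of 9.04 and 9.36 against 0.00 to 2.34 in the other 13. BDE-47 mouse 6 had 87200 CPM of 8 skeletal muscle markers, against 40.9 to 183 CPM elsewhere. Of 7 keratinocyte markers, 5 to 6 were above the floor in each mouse, at 24.1 to 58.6 CPM in sum, and Ivl was at 0 in all mice. Differences of the tested members are given with all 15 mice and with the 12 (6 per group) that remain without these 3. In tissue pieces of this kind, fewer cells of a type and less RNA per cell cannot be told apart.

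**Figure D1:**
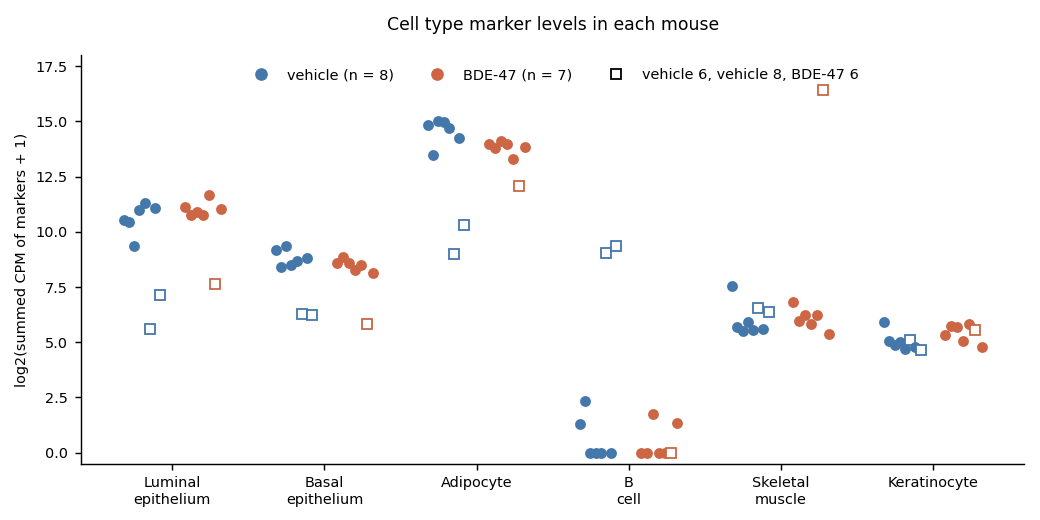
Summed level of 6 cell type marker lists in each mouse, as log2(summed CPM + 1) on the vertical axis, with 1 symbol per mouse, blue for vehicle (n = 8) and orange for BDE-47 (n = 7). The open squares are vehicle mice 6 and 8 and BDE-47 mouse 6, which lie below the 12 other mice for luminal, basal and adipocyte markers, with B cell markers high in the first pair and skeletal muscle markers high in the last.

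The members were expressed at unequal levels. Prlr was by far the most abundant, with a mean of 8.32 ± 2.14 log2(CPM) (SD, n = 15 mice) and a median of 545 CPM. It stood 3.46 ± 2.60 above Stat5a on the log2 scale, and was the higher of that pair in 14 of 15 mice. Stat5a (4.86 ± 2.10), Stat5b (4.73 ± 1.92), Wnt4 (4.38 ± 2.26), Pgr (4.34 ± 2.65), Esr1 (4.12 ± 1.74) and Areg (3.95 ± 2.95) followed in that order of mean log2(CPM), and no neighbors among these 6 differed beyond the spread of their paired differences. Greb1 (0.33 ± 1.27) and Tnfsf11 (0.22 ± 0.86) came last, 3.62 ± 2.69 below Areg in the case of Greb1. Without the 3 mice that stood apart, Prlr was the higher in 12 of 12 mice, 3.90 ± 1.51 log2 units above Pgr, which was then second, and the genes from Pgr to Esr1 again did not differ beyond their spread.

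**Figure D2:**
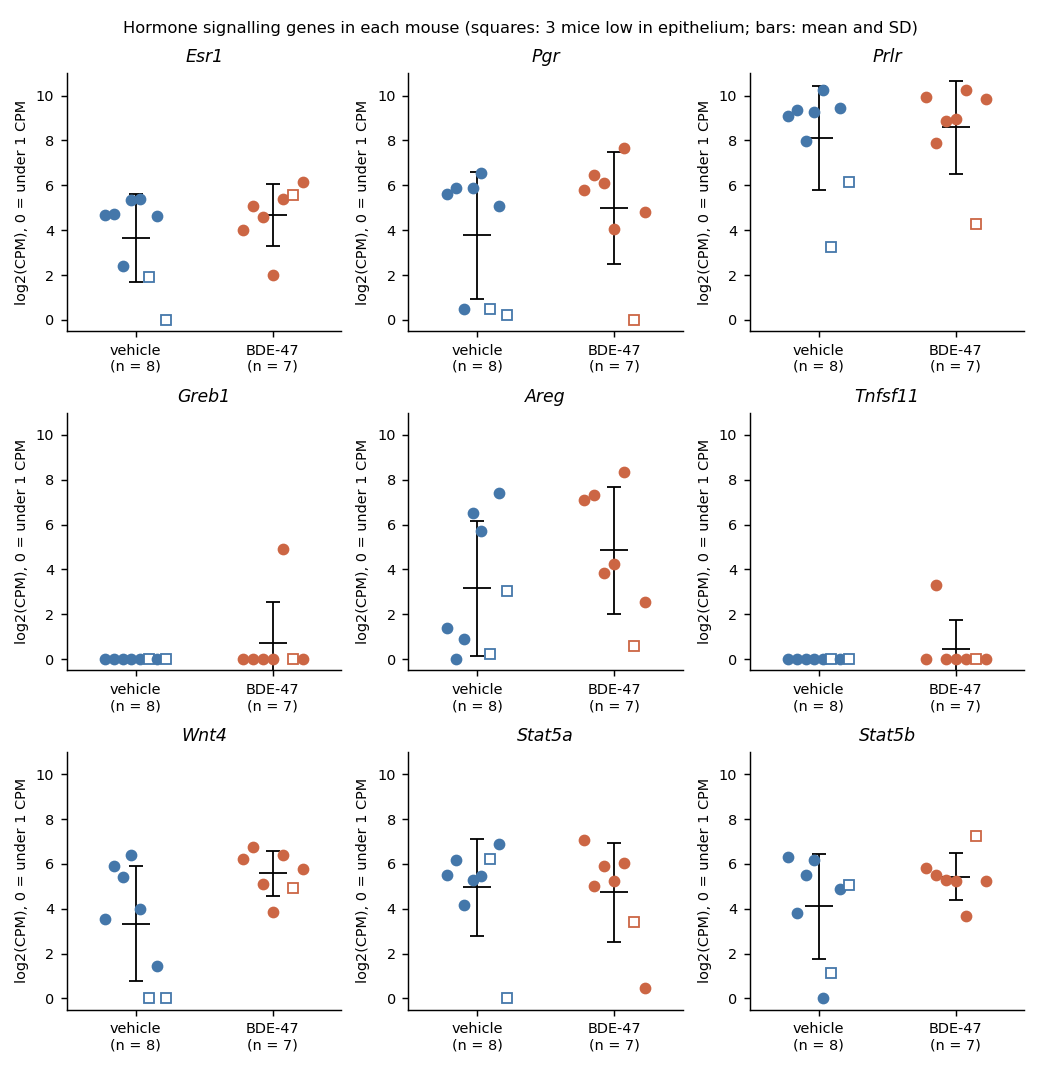
Expression of the 9 hormone signaling genes in each mouse, as log2(CPM) with values under 1 CPM at 0, for vehicle (blue, n = 8) and BDE-47 (orange, n = 7), with the mean and SD as black bars and open squares for vehicle mice 6 and 8 and BDE-47 mouse 6. The groups overlap for every gene, Greb1 and Tnfsf11 are above 0 in 1 BDE-47 mouse each, and the 4 lowest Wnt4 values are all in vehicle mice.

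The comparison of BDE-47 with vehicle mice found no member past the test. Of the 9 members, 7 had at least 1 CPM in at least 7 mice and were tested with limma along with all other such genes, and Greb1 and Tnfsf11 were not. None of the 7 passed an adjusted p of 0.05 (adjusted p 0.982 to 0.994), and neither did any of the 9506 genes tested (0%). At an unadjusted p of 0.05, 1 member (Wnt4) passed, beside 4.65% of all tested genes, or 1.94% counting only those higher with BDE-47. Mean log2(CPM) was higher in BDE-47 mice for 6 of the 7 members and lower for 1, whereas 49.1% of all tested genes were higher. The difference of means was above 1 log2 unit for 5 of the 7, beside 13% of all tested genes, and under −1 for 0 of the 7, beside 13.2%. For none of the 9 members did the groups lie apart without overlap, which occurred in 0.0105% of tested genes. The median difference over the 7 was 1.21, and over all tested genes −0.02. In the 12 mice those counts were 5 higher and 2 lower (50% of all genes higher), 2 above 1 log2 unit (14.6% of all genes), and the median difference was 0.69 (0.00 over all genes). The luminal marker level moved the same way, with a BDE-47 minus vehicle difference of 0.99 on the log2 scale in 15 mice (exact permutation test, two-sided, p = 0.288) and 0.42 in 12 mice (p = 0.225). The adipocyte level differed by 0.26 in 15 mice (exact permutation p = 0.773) and by −0.72 in the 12 (p = 0.0325, not adjusted for the number of marker lists). The part of either level in the members' differences was not tested.

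**Figure D3:**
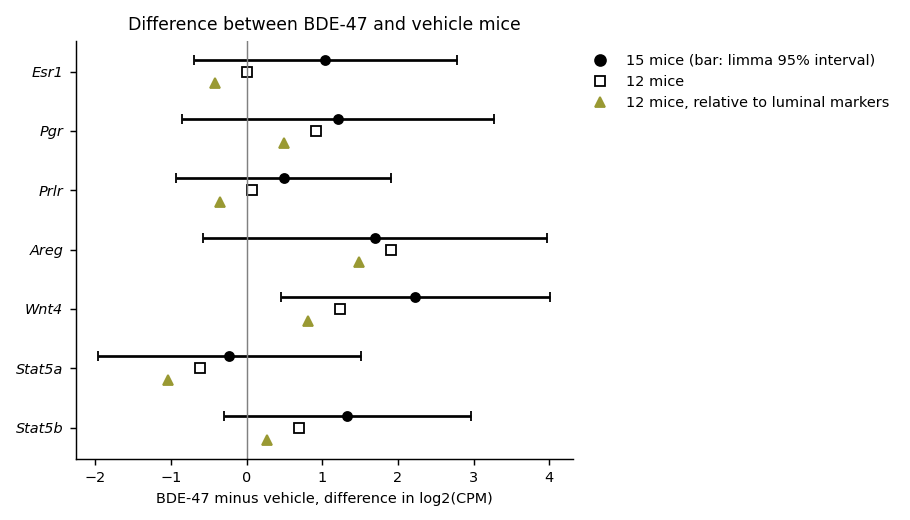
BDE-47 minus vehicle difference of mean log2(CPM) for the 7 tested members, with 15 mice (filled circles, bars for limma's 95% interval), with 12 mice (open squares), and with 12 mice after subtracting each mouse's luminal marker level (triangles). The 15-mouse interval includes 0 for 6 of the 7 genes, Wnt4 being the exception at 0.46 to 4.01, and the other symbols lie to the left of the circle, except the 12-mouse value of 1.91 for Areg.

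Esr1 encodes the receptor through which estrogen acts in luminal cells. It ranged from 0.00 to 5.38 log2(CPM) in vehicle mice (median 4.66, or 25.3 CPM) and from 1.99 to 6.17 in BDE-47 mice (median 5.06, or 33.3 CPM). The groups overlapped throughout, the lowest values being those of vehicle mouse 8, which was listed at 0, vehicle mouse 6 and BDE-47 mouse 4, and the highest that of BDE-47 mouse 7. BDE-47 mouse 6, the muscle rich sample, came next at 5.57. The vehicle mean was 3.64 ± 1.96 (SD, n = 8) and the BDE-47 mean 4.68 ± 1.38 (SD, n = 7). The difference of 1.04 log2 units (SE 0.86, 95% interval −0.70 to 2.78) did not pass limma (adjusted p = 0.982) or the exact permutation test of the gene by itself (two-sided, p = 0.271). In the 12 mice the means were 4.53 ± 1.09 and 4.53 ± 1.45, a difference of 0.00.

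Pgr, the progesterone receptor gene and a classical estrogen target, lay in 2 separate ranges. It was between 4.05 and 7.65 log2(CPM) in 11 mice and between 0.00 and 0.50 in the other 4, which were vehicle mice 3, 6 and 8 and BDE-47 mouse 6. Vehicle mice ran from 0.23 to 6.53 (median 5.34, or 41.3 CPM) and BDE-47 mice from 0.00 to 7.65 (median 5.81, or 56 CPM). Vehicle mouse 3 was the sample with the lowest luminal level among the 12, at 654 CPM, and 3 of the 4 low values were in the samples that stood apart. The means of 3.77 ± 2.82 (SD, n = 8) and 4.98 ± 2.48 (SD, n = 7) differed by 1.21 log2 units (SE 1.02, 95% interval −0.85 to 3.27; limma adjusted p = 0.982; exact permutation p = 0.414). It was 0.91 in the 12 mice (exact permutation p = 0.489). With only vehicle mice 6 and 8 left out, it was 0.07.

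Greb1 was listed at 0 in 14 mice, all 8 vehicle mice among them. The exception was BDE-47 mouse 5, at 4.92 log2(CPM), or 30.2 CPM from 434 reads. That mouse also had the highest Pgr, Prlr and Areg of all 15 and the highest luminal level, at 3210 CPM. With 1 of 7 against 0 of 8 mice above the floor, the groups did not pass Fisher's exact test (p = 0.467).

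Areg encodes amphiregulin, the EGF receptor ligand that relays estrogen signals from luminal cells to the surrounding stroma. It was the most variable member, from 0.00 to 7.39 log2(CPM) in vehicle mice (median 2.24, or 5.51 CPM) and from 0.57 to 8.34 in BDE-47 mice (median 4.26, or 19.1 CPM). Values of more than 5 log2(CPM) occurred in vehicle mice 4, 5 and 7 and in BDE-47 mice 1, 2 and 5, so the high samples came from both groups. The means of 3.16 ± 2.99 (SD, n = 8) and 4.85 ± 2.84 (SD, n = 7) differed by 1.70 log2 units (SE 1.13, 95% interval −0.58 to 3.97; limma adjusted p = 0.982; exact permutation p = 0.274). It was 1.91 in the 12 mice (exact permutation p = 0.264).

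Wnt4, a secreted WNT ligand that progesterone induces in luminal cells, showed the largest difference among the members over the 15 mice, though not over the 12, where that of Areg was larger. It ranged from 0.00 to 6.41 log2(CPM) in vehicle mice (median 3.77, or 13.8 CPM) and from 3.87 to 6.74 in BDE-47 mice (median 5.79, or 55.2 CPM). The vehicle mice were widely spread, with mice 6 and 8 listed at 0 and mouse 7 at 1.45, while mice 2, 3, 4 and 5 lay within the BDE-47 range. Each of the 7 BDE-47 mice exceeded the vehicle mean. The means were 3.34 ± 2.58 (SD, n = 8) and 5.57 ± 1.00 (SD, n = 7), a difference of 2.23 log2 units (SE 0.88, 95% interval 0.46 to 4.01). The unadjusted limma p was 0.0149 and the adjusted p 0.982, and the exact permutation test gave p = 0.0564. Both vehicle mice at 0 were B cell rich samples with little epithelium, and in the 12 mice the difference was 1.23 with means of 4.45 ± 1.84 and 5.68 ± 1.05 (exact permutation p = 0.19).

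Tnfsf11 encodes RANK ligand, the paracrine mediator of progesterone in the gland. It was listed at 0 in 14 mice and stood at 3.33 log2(CPM), 10 CPM from 148 reads, in BDE-47 mouse 2. That mouse had the highest Wnt4 of all 15, at 6.74, and Pgr and Areg at 6.48 and 7.31. The count of mice above the floor, 1 of 7 against 0 of 8, did not pass Fisher's exact test (p = 0.467).

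Prlr, the receptor for prolactin, was between 7.89 and 10.26 log2(CPM) in 12 mice. The 3 samples that stood apart were the 3 lowest, with 3.26 in vehicle mouse 6, 4.29 in BDE-47 mouse 6 and 6.13 in vehicle mouse 8. Vehicle mice ran from 3.26 to 10.23 (median 9.19, or 584 CPM) and BDE-47 mice from 4.29 to 10.26 (median 8.95, or 495 CPM), with the highest value of each group in mouse 5. The ranges coincided nearly from end to end. The means of 8.09 ± 2.32 (SD, n = 8) and 8.58 ± 2.06 (SD, n = 7) differed by 0.49 log2 units (SE 0.71, 95% interval −0.94 to 1.91; limma adjusted p = 0.994; exact permutation p = 0.68). In the 12 mice the means were 9.23 ± 0.73 and 9.29 ± 0.89, a difference of 0.07 (exact permutation p = 0.877), and without vehicle mouse 6 alone the difference was −0.21.

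Stat5a and Stat5b encode the transcription factors that carry the prolactin signal to the nucleus, STAT5A being the main form in mammary epithelium and STAT5B also serving growth hormone signaling in other tissues. Stat5a ranged from 0.00 to 6.90 log2(CPM) in vehicle mice (median 5.49, or 44.9 CPM) and from 0.45 to 7.07 in BDE-47 mice (median 5.26, or 38.2 CPM). A single mouse in each group was far below the rest, vehicle mouse 8 at 0.00 and BDE-47 mouse 7 at 0.45, and the other mice overlapped. The means of 4.96 ± 2.16 (SD, n = 8) and 4.74 ± 2.20 (SD, n = 7) differed by −0.23 log2 units (SE 0.86, 95% interval −1.96 to 1.51; limma adjusted p = 0.994; exact permutation p = 0.821). In the 12 mice it was −0.62, with means of 5.58 ± 0.92 and 4.96 ± 2.32 (exact permutation p = 0.688), and leaving out BDE-47 mouse 7 turned it to 0.49.

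Stat5b ranged from 0.00 to 6.29 log2(CPM) in vehicle mice (median 4.96, or 31.2 CPM) and from 3.66 to 7.24 in BDE-47 mice (median 5.29, or 39.2 CPM). The highest value belonged to BDE-47 mouse 6, the muscle rich sample, and the lowest to vehicle mouse 5 (listed at 0) and vehicle mouse 6 (1.13). Means of 4.11 ± 2.34 (SD, n = 8) and 5.44 ± 1.05 (SD, n = 7) gave a difference of 1.33 log2 units (SE 0.81, 95% interval −0.30 to 2.96; limma adjusted p = 0.982; exact permutation p = 0.214). It was 0.69 in the 12 mice (exact permutation p = 0.647). The low mice of the paralogs were different animals: vehicle mouse 8 had 0.00 for Stat5a and 5.06 for Stat5b, BDE-47 mouse 7 had 0.45 and 5.23, and vehicle mouse 6 had 6.22 and 1.13.

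The epithelial content of the pieces tracked some members and not others. All 12 mice had more Prlr than each of the 3 samples that stood apart, and 11 of the 12 had more Pgr. For Areg and Wnt4 this held in 8 of the 12 each, for Stat5a in 2, for Esr1 in 1 and for Stat5b in 0. These counts depend on the highest of the 3 samples, which for Esr1 (5.57), Wnt4 (4.91) and Stat5b (7.24) was the muscle rich BDE-47 mouse 6. Vehicle mice 6 and 8 were below all 12 for Esr1 (1.93 and 0.00, against 1.99 or more). The same was true of Wnt4 (0.00 in both, against 1.45 or more), but not of Stat5b (1.13 and 5.06). Because the 15 mice fall into separate clusters of luminal content, correlations were taken within the 12 mice, for 7 members with the luminal and with the adipocyte level (14 relations, with p from 100000 permutations, Benjamini-Hochberg adjusted over the 14).

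Prlr correlated with the luminal level at Pearson's r = 0.76 (permutation p = 0.0025, adjusted 0.0175) and Spearman's rho = 0.82 (permutation p = 0.0021, adjusted 0.0294). Without the 2 mice farthest from the median luminal level r was 0.57 (permutation p = 0.0844), and within the 6 vehicle and 6 BDE-47 mice it was 0.94 and 0.80. The Areg correlation was r = 0.71 (permutation p = 0.00239, adjusted 0.0175) and rho = 0.73 (permutation p = 0.00966, adjusted 0.0676), and r was 0.67 without the 2 farthest mice (permutation p = 0.0358), 0.74 within vehicle and 0.50 within BDE-47 mice.

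For Pgr r was 0.85 (permutation p = 0.00531, adjusted 0.0248) but rho was 0.44 (permutation p = 0.156, adjusted 0.364), and without the 2 farthest mice r was 0.11 (permutation p = 0.776), so the linear relation rested on those mice. The Esr1 correlation, r = 0.60 (permutation p = 0.0514, adjusted 0.18) and rho = 0.45 (permutation p = 0.147, adjusted 0.364), did not pass. Neither did those of Wnt4 (r = −0.01, rho = 0.07), Stat5a (r = 0.18, rho = 0.36) and Stat5b (r = −0.36, rho = −0.43). With the adipocyte level no member passed, r running from −0.49 for Pgr (permutation p = 0.0979, adjusted 0.274) to 0.10 for Stat5b (permutation p = 0.779, adjusted 0.909).

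**Figure D4:**
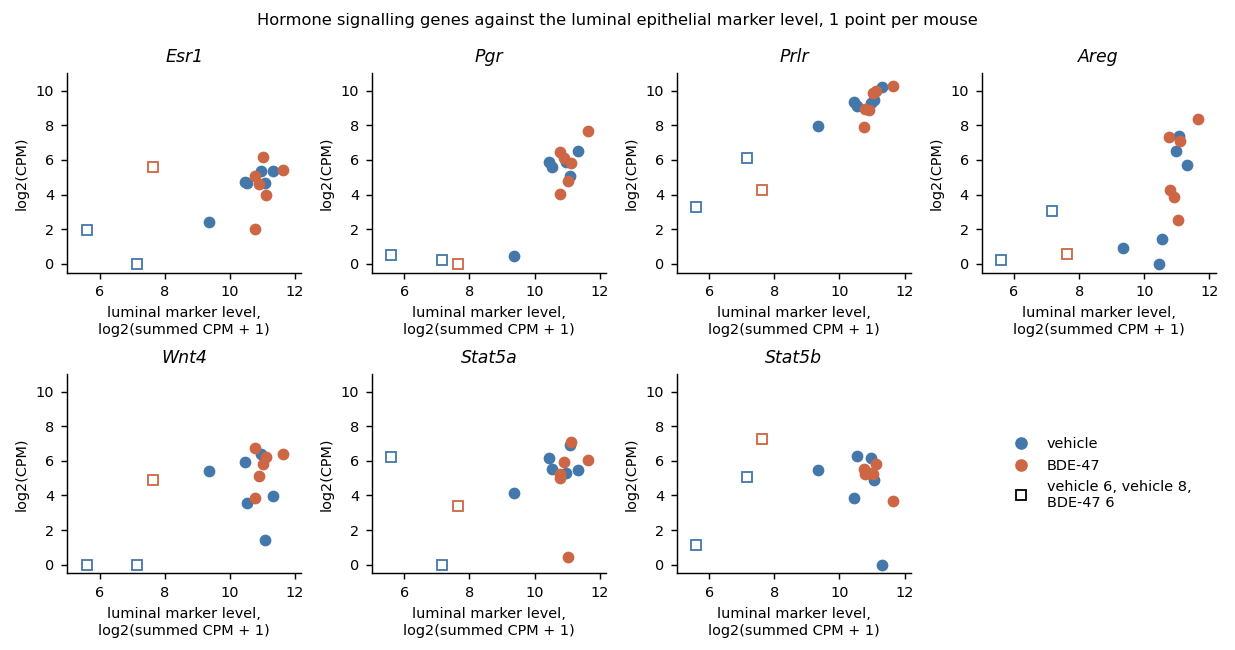
Expression of the 7 tested members (log2(CPM), vertical axes) against the luminal marker level (log2(summed CPM + 1), horizontal axes), with 1 point per mouse, blue for vehicle and orange for BDE-47, and open squares for vehicle mice 6 and 8 and BDE-47 mouse 6. Prlr lies along a narrow diagonal (r = 0.76 in the 12 mice drawn as circles), whereas Wnt4 (r = −0.01) and Stat5b (r = −0.36) do not.

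Expressed relative to the luminal level of the same mouse, Prlr was the most even member. The SD of its log2(CPM) over 15 mice was 2.14, and that of log2(CPM) minus the luminal level 0.69, while for Stat5b the SD went from 1.92 to 2.46. Over the 12 mice the SD of Prlr went from 0.78 to 0.51 and that of Stat5b from 1.71 to 1.98. Prlr thus had the lowest SD of the tested members in the 12 mice before the subtraction too. On this relative scale no member passed a test between groups. In the 12 mice the BDE-47 minus vehicle difference was −0.42 for Esr1 (exact permutation p = 0.53), 0.49 for Pgr (p = 0.604), −0.35 for Prlr (p = 0.268) and 1.49 for Areg (p = 0.323). It was 0.81 for Wnt4 (exact permutation p = 0.446), −1.04 for Stat5a (p = 0.37) and 0.27 for Stat5b (p = 0.864).

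The members also varied with one another, which is given as a description over mice of both groups that share their cell makeup and depth. Over 15 mice Pgr and Prlr had the highest correlation, r = 0.83, which was 0.54 over the 12. Over the 12 the highest was that of Esr1 and Pgr, r = 0.69, which was 0.63 over the 15. Pgr and Areg had r = 0.65 and 0.53. Esr1 and Wnt4 were correlated over 15 mice (r = 0.66) and less so over the 12 (r = 0.22), and the paralogs Stat5a and Stat5b had r = −0.23 and −0.10.

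Among the other tested genes, the 2 with the pattern most like each member were found by Pearson's r over the 15 mice. Genes again share cell makeup and depth in these mice. Each r was picked as the highest of all tested genes, so it is high in part by the choice. The 12 mice are among the 15 used for that choice. Spearman's rho of the pairs over the 15 mice ran from 0.47 to 0.98. For Prlr they were Ptn, which encodes the growth factor pleiotrophin (r = 0.96, and 0.54 in the 12 mice), and Cd164, which encodes a sialomucin (r = 0.95 and 0.92). For Pgr they were Smim22 (r = 0.95 and 0.86) and Krt7, a keratin of the luminal marker list (r = 0.91 and 0.74). For Wnt4 they were Pi16, a gene known from fibroblasts (r = 0.94 and 0.86), and Fermt2, which encodes an integrin activator (r = 0.89 and 0.73).

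Esr1 was nearest to Slc25a28, which encodes a mitochondrial iron carrier (r = 0.91 and 0.91), and Oxsr1, a kinase gene (r = 0.90 and 0.93). Areg was nearest to Kctd11 (r = 0.82 and 0.80) and Tgm2, which encodes a transglutaminase (r = 0.81 and 0.74). Stat5a had Nolc1 (r = 0.89 and 0.83) and the homeobox gene Irx3 (r = 0.88 and 0.79), and Stat5b had Tmem57 (r = 0.87 and 0.91) and Npepl1 (r = 0.86 and 0.81). Spearman's rho over the 15 mice was lower, at 0.47 and 0.49 for the genes of Stat5a and 0.75 and 0.58 for those of Stat5b. Greb1 and Tnfsf11 were above the floor in too few mice for such a search.

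The pathway around the members was described with 4 lists, and no gene of any list passed an adjusted p of 0.05. Over all tested genes, for comparison, 49.1% were higher in BDE-47 mice, 13% were above 1 log2 unit, 13.2% were under −1, and the median difference was −0.02 (0.00 in the 12 mice). The 2 genes with the lowest limma p of each list are named below, out of 40 tested, so no further p is given for them. In the list of receptors and cofactors, 17 of 18 genes were found and 13 were tested, with 7 higher and 6 lower in BDE-47 mice, 2 above 1 log2 unit, 0 under −1 and a median difference of 0.02 (0.10 in the 12 mice). The luminal regulator Gata3 was at 6.83 ± 1.65 log2(CPM) in vehicle and 7.54 ± 1.45 in BDE-47 mice. Listed at 0 in every mouse were Esr2 (estrogen receptor beta), Sult1e1 (estrogen sulfotransferase) and Cyp19a1 (aromatase).

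Foxa1 and Cited1 had the lowest p of that list. Foxa1, the pioneer factor of estrogen receptor binding, was at 4.20 ± 2.78 log2(CPM) in vehicle mice, 0 in vehicle mice 6 and 8, and at 5.81 ± 2.17 in BDE-47 mice. Its difference was 1.61 (limma adjusted p = 0.982) and 0.59 in the 12 mice. Cited1, a coactivator of the estrogen receptor found in luminal cells, was at 5.32 ± 2.97 and 7.17 ± 1.10, a difference of 1.86 (limma adjusted p = 0.982) and of 0.77 in the 12 mice.

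In the progesterone and paracrine list all 11 genes were found and 9 tested, with 5 higher, 4 lower, 2 above 1 log2 unit, 2 under −1 and a median difference of 0.54 (0.25 in the 12 mice). Tnfrsf11a, which encodes RANK, the receptor of RANK ligand, was between 2.02 and 4.62 log2(CPM) in vehicle mice (median 4.13), all 8 above the floor, and between 0.00 and 4.03 in BDE-47 mice (median 0.00), of which 3 of 7 were above it. Of the 3 BDE-47 mice above the floor, mice 3 and 4 lay within the vehicle range, at 3.14 and 4.03, and mouse 6 below it, at 1.41. Means of 3.60 ± 1.07 (SD, n = 8) and 1.23 ± 1.71 (SD, n = 7) differed by −2.37 log2 units (SE 1.02). This did not pass (limma adjusted p = 0.982). The difference was −2.22 in the 12 mice and −2.84 to −2.17 with any 1 mouse left out. The 4 BDE-47 mice at 0 were mice 1, 2, 5 and 7.

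Rspo1, which encodes an R-spondin that amplifies WNT signals, was above the floor in 3 of 8 vehicle and 6 of 7 BDE-47 mice. Its means were 1.72 ± 2.39 and 4.31 ± 2.37 log2(CPM), a difference of 2.59 (SE 1.16; limma adjusted p = 0.982), and 2.22 in the 12 mice. Axin2, a common WNT target, was at 2.12 ± 2.30 and 1.34 ± 1.81, with 4 of 8 and 3 of 7 mice past the floor.

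**Figure D5:**
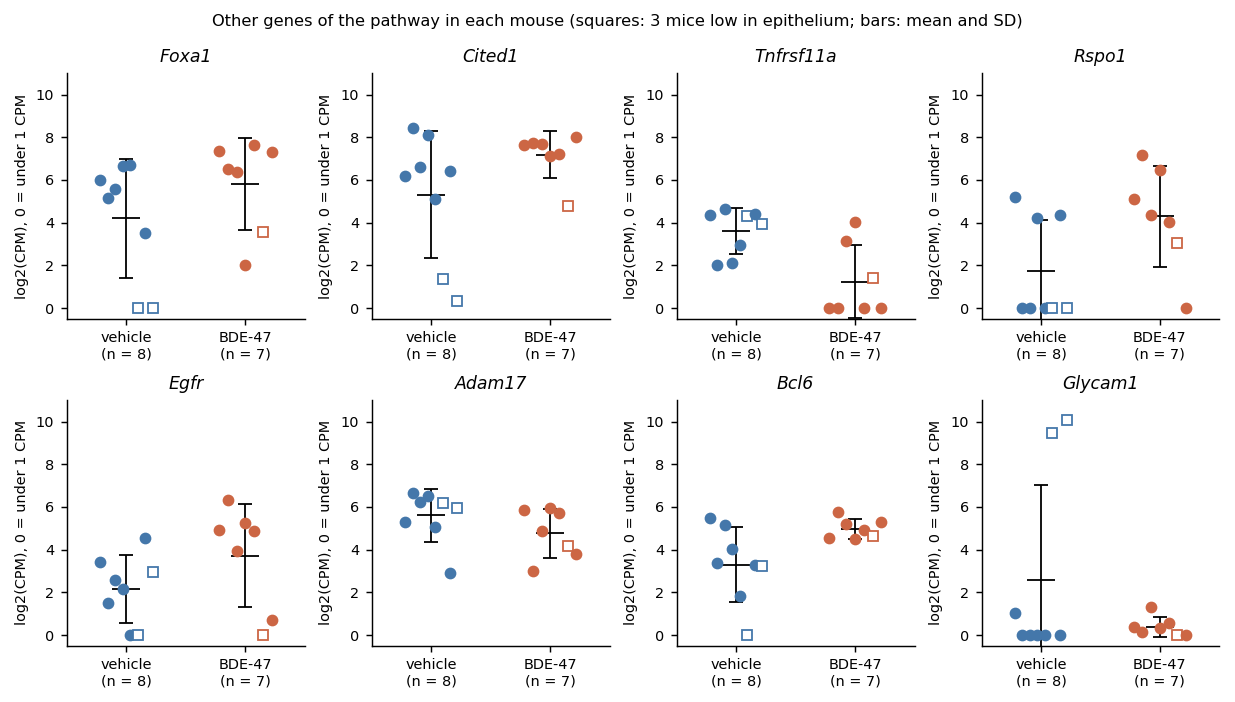
Expression of 8 other genes of the pathway in each mouse, as log2(CPM) with values under 1 CPM at 0, for vehicle (blue, n = 8) and BDE-47 (orange, n = 7), with the mean and SD as black bars and open squares for vehicle mice 6 and 8 and BDE-47 mouse 6. Tnfrsf11a is above 0 in all 8 vehicle and in 3 of 7 BDE-47 mice, Bcl6 is between 4.48 and 5.76 in all BDE-47 mice, and Glycam1 is high only in vehicle mice 6 and 8.

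In the EGF receptor list, the receptors and ligands through which amphiregulin works, all 10 genes were found and 5 tested, with 4 higher, 1 lower, 2 above 1 log2 unit, 0 under −1 and a median difference of 0.49 (0.83 in the 12 mice). Egfr, the amphiregulin receptor gene, was at 2.14 ± 1.60 log2(CPM) in vehicle and 3.71 ± 2.41 in BDE-47 mice, a difference of 1.57 (limma adjusted p = 0.982) and of 1.96 in the 12 mice. Adam17, the protease that sheds amphiregulin from the cell surface, was at 5.60 ± 1.22 and 4.77 ± 1.15, a difference of −0.83 (limma adjusted p = 0.982) and of −0.58 in the 12 mice. The ligand genes Ereg and Nrg1 were listed at 0 in every mouse.

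In the prolactin and STAT5 list all 18 genes were found and 13 tested, with 8 higher, 5 lower, 3 above 1 log2 unit, 2 under −1 and a median difference of 0.23 (0.28 in the 12 mice). The hormone gene Prl and the milk protein genes Csn2 and Wap were listed at 0 in every mouse. Other milk protein genes were not: the kappa-casein gene Csn3 was above the floor in 11 of 15 mice, with medians of 6.14 log2(CPM) in vehicle and 5.98 in BDE-47 mice, Csn1s1 in 3 and Lalba in 2. The kinase gene Jak2 was at 3.42 ± 1.71 log2(CPM) in vehicle and 3.64 ± 1.52 in BDE-47 mice, and its difference of 0.22 was −0.17 in the 12 mice. The STAT5 targets Socs2 and Cish, which encode feedback inhibitors, were at 4.17 ± 2.03 and 3.89 ± 0.90 and at 1.72 ± 1.93 and 3.24 ± 1.71, respectively, and neither passed (limma adjusted p = 0.994 and 0.982). The Socs2 difference of −0.29 was 0.24 in the 12 mice, and that of Cish was 1.52 and 1.32.

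Bcl6, which encodes a transcriptional repressor and is itself repressed by STAT5, was between 0.00 and 5.46 log2(CPM) in vehicle mice (median 3.32) and between 4.48 and 5.76 in BDE-47 mice (median 4.91). The vehicle values were spread, 2 of them inside the BDE-47 range and the others below it. Means of 3.29 ± 1.76 (SD, n = 8) and 4.98 ± 0.47 (SD, n = 7) differed by 1.68 log2 units (SE 0.81). This did not pass (limma adjusted p = 0.982), and the difference was 1.18 in the 12 mice. Glycam1, a milk mucin gene that is also expressed in the high endothelial venules of lymph nodes, was at 9.44 and 10.06 in vehicle mice 6 and 8, at 0 to 1.01 in the other 6 vehicle mice and at 0.00 to 1.33 in BDE-47 mice. Its difference was −2.18 (limma adjusted p = 0.982) and 0.28 in the 12 mice.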

How the data were processed

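Mammary tissue of 15 mice (8 vehicle, 7 BDE-47) was profiled with QuantSeq 3′ FWD libraries. STAR 2.5.3a and GRCm38 are named in the submitters' processing notes, and the authors scaled the mapped reads to CPM. The deposited unit is log2(CPM), in which a gene under 1 CPM is listed at 0, as the values themselves show, and no count model was used. Depth was recovered from the spacing of low values, all of which were whole reads within 0.02 of a read. At this depth 1 CPM stands for 10.06 to 19.58 reads. Of 52636 entries, 110 that repeat a gene name were dropped. The groups come from the treatment labels, and all mice belong to 1 experiment number. Each library is a separate mouse, so p-values measure the spread between animals.

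Differences were tested with limma 3.58.1 in R 4.3.3 (empirical Bayes with a trend), on genes that reached 1 CPM in 7 or more mice, with Benjamini-Hochberg adjustment over all 9506, and tested first on simulated data. Single genes were tested with two-sided exact permutation tests over 6435 splits, whose smallest p is 0.000155. Other steps used Python 3.11.15 with scipy 1.17.1, numpy 2.4.6, pandas 2.3.3 and matplotlib 3.10.9. Marker levels are log2(summed CPM + 1). The study's analysis of covariance used xenograft presence, which the labels do not give per mouse, so no covariate entered. Correlations had been planned over 15 mice and were taken over 12, because the mice cluster by luminal content. The members, gene lists and tests were chosen with earlier results of these data known. Named genes are the members, the 2 genes of each pathway list with the lowest limma p, and for each member above the floor in at least 10 mice the 2 genes with the highest r. Other genes of the lists (among them Gata3, Axin2, Jak2, Socs2, Cish and the milk genes) were chosen after their values were seen, as were Wfdc18 and Chchd2. Promoter windows and loci are from RefSeq tables of GRCm38.p6, matched by symbol for 9 of 9 members. Alternatives covered the floor, the filter, the scaling, limma's trend, a replicate block and left-out mice.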

Additional observations from a re-analysis of the deposited data

Results flagged for a closer look

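In 46 groups of values checked, 12 held a mouse far from the others of its group. Chance flags about 1 in 20 groups, and the groups share mice. Values are log2(CPM) for genes and log2(summed CPM + 1) for marker levels.

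BDE-47 mouse 6 accounted for 6 of the 12. It was at 4.29 for Prlr, against 7.89 to 10.26 in the other BDE-47 mice, and at 4.78 for Cited1, against 7.13 to 8.03. Its luminal marker level was 7.63 against 10.77 to 11.65, its basal level 5.81 against 8.14 to 8.85, its adipocyte level 12.09 against 13.28 to 14.10 and its skeletal muscle level 16.41 against 5.39 to 6.84.

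Greb1 stood at 4.92 in BDE-47 mouse 5 and Tnfsf11 at 3.33 in BDE-47 mouse 2, with the other 6 BDE-47 mice at 0 for each. Stat5a was listed at 0 in vehicle mouse 8, against 4.17 to 6.90 in the other vehicle mice. Adam17 was 2.90 in vehicle mouse 7, against 5.07 to 6.67, and Glycam1 was 1.33 in BDE-47 mouse 3, against 0 to 0.55. The keratinocyte marker level was 5.90 in vehicle mouse 1, against 4.65 to 5.10.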

How the results depend on the processing

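Of 237 member differences recomputed under an alternative, 223 kept their direction, 11 reversed and 3 came to 0. The 3 at 0 were Greb1 without BDE-47 mouse 5, Tnfsf11 without BDE-47 mouse 2, and Prlr as the share of mice above the floor. Where a test was run, the 223 also kept their side of the threshold. Differences over only the mice above the floor had no test. The filter settings, limma without trend and the exact permutation test leave the difference itself unchanged (1.04 for Esr1 in each). Their rows are among the 223 but are no check of direction. Greb1 and Tnfsf11 were at 0 in every vehicle mouse, so none of the alternatives could reverse them. Over only the mice above the floor, each tested member repeated its main value or one with mice left out. The replicate block repeated the values without vehicle mouse 8. The count of 223 is therefore not one of separate checks. In no alternative did a member pass an adjusted p of 0.05. The precision is limited by the floor, the number of mice and the spread between them, and the interval of each tested member's difference holds values past 1 log2 unit. Unless stated, the cause of a reversal was not tested.

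Esr1 turned to −0.0037 in the 12 mice and −0.42 relative to the luminal level in them. Prlr was −0.65 without vehicle mice 6 and 8, −0.51 relative to the luminal level in 15 mice and −0.35 in 12. Without vehicle mice 6 and 8 the other tested members kept their direction, but Esr1 was 0.15 and Pgr 0.07. Areg was then 1.19, Wnt4 1.12, Stat5a −0.84 and Stat5b 0.99. Stat5a was 0.21 with log2(CPM + 0.1). As percentage points of mice above the floor, Pgr was −14.3 and Stat5a 12.5. With 1 mouse left out at a time, the difference ran from 0.52 to 1.49 for Esr1, 0.70 to 2.04 for Pgr, −0.21 to 1.20 for Prlr, 0.00 to 0.82 for Greb1, 1.12 to 2.41 for Areg, 0.00 to 0.55 for Tnfsf11, 1.76 to 2.67 for Wnt4, −0.93 to 0.49 for Stat5a and 0.74 to 1.64 for Stat5b. Prlr turned without vehicle mouse 6, and Stat5a without vehicle mouse 7 (0.05) or BDE-47 mouse 7. Greb1 and Tnfsf11 each rest on 1 mouse.

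The count of genes called was 0 under every alternative except the 12 mice, an alternative added after seeing the data, where limma called 2, Wfdc18 (1.78 higher, adjusted p = 0.0316) and Chchd2 (−1.48, with an adjusted p that rounds to 0.05). Median-of-ratios scaling moved the median difference of all genes from −0.02 to 0.06. The deviations of same-numbered mice had r of −0.02 to 0.05 over 7 pairs, yet 4 of 7 BDE-47 mice were nearest to their own number. Whether the numbers pair mice is not settled by these values. With the replicate block 0 genes were called. The differences were 0.52 for Esr1, 0.70 for Pgr, 0.20 for Prlr, 1.68 for Areg, 1.76 for Wnt4, −0.93 for Stat5a and 1.47 for Stat5b. No BDE-47 mouse shares the number of vehicle mouse 8, so the block takes that mouse out of the comparison. These differences are therefore the same as those with vehicle mouse 8 left out.

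Marker level differences without vehicle mice 6 and 8 were −0.07 for luminal and −0.97 for adipocyte markers (exact permutation p = 0.0192), and the latter was −0.72 in the 12 mice (exact permutation p = 0.0325). With 1 mouse left out they ran from 0.43 to 1.48 (luminal), −0.35 to 0.31 (basal), −0.36 to 0.51 (adipocyte), −2.70 to −1.37 (B cell), −0.01 to 1.83 (skeletal muscle) and 0.35 to 0.55 (keratinocyte, past 0.05 without vehicle mouse 1 or BDE-47 mouse 4 or 7).

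Correlations with the luminal level within vehicle mice were 0.93 for Esr1, 0.89 for Pgr and 0.74 for Areg, and within BDE-47 mice 0.66 for Pgr, 0.50 for Areg and 0.43 for Wnt4. Without the 2 farthest mice they were 0.11 for Pgr, 0.57 for Prlr and −0.07 for Stat5a. With the adipocyte level they were 0.24 for Areg and 0.07 for Wnt4 within vehicle mice, and −0.65 for Wnt4, 0.05 for Stat5a and −0.12 for Stat5b without the 2 farthest mice.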
